A study of Mus musculus with 6 samples.

Results

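Mesenchymal stromal cells are recognised by a panel of proteins on their surface, and 10 genes of that panel are described here: Eng, Thy1, Nt5e, Ly6a, Cd44, Vcam1, Pdgfra, Pdgfrb, Lepr and Alcam. They were chosen by name, with earlier results of these data known. Of the 10, 9 were represented by 27 probe sets annotated to that gene alone, out of 18193 genes and 45037 probe sets tested. Ly6a had no such probe set and was not analysed here. For each gene the brightest probe set over all arrays stood for the gene, and its other probe sets served as checks.

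The cells were mouse mesenchymal stem cells bought from a single commercial source, and all cultures, controls included, were grown in 5 µg/ml insulin, 1 µM dexamethasone, 1 µM rosiglitazone and 100 µM isobutylmethylxanthine, with fresh compounds 48 h before exposure. This mixture is widely used to turn such cells into fat cells, and no culture without it was compared. In each of 3 independent experiments a culture was exposed for 2 h to a continuous-wave terahertz laser (2.52 THz, wavelength 118.8 µm) while its unexposed control stood next to it, both at 26 to 27 °C. RNA taken straight after exposure was read on 1 Affymetrix array per culture, 3 irradiated and 3 control. The design asks what exposure changes in a culture compared with the control of the same experiment.

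These markers belong to several kinds of protein. Pdgfra and Pdgfrb encode the receptor tyrosine kinases for platelet-derived growth factors, which drive the growth and migration of stromal cells, and Lepr encodes the leptin receptor, which marks stromal cells of adult bone marrow. Eng encodes endoglin, or CD105, a co-receptor for ligands of the TGF-beta family. Cd44, which binds hyaluronan, Vcam1, which binds integrins, and Alcam, or CD166, which binds itself and CD6, are adhesion molecules. Nt5e encodes CD73, an ectoenzyme that makes adenosine from AMP, and Thy1 encodes CD90. Both are held in the membrane by a glycosylphosphatidylinositol (GPI) anchor. Several of these proteins are not particular to stromal cells: macrophages also carry CD44 and VCAM1, endothelial cells endoglin, and T cells THY1.

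Most of the panel read at high levels on these arrays, and Thy1 read lowest. Levels are RMA values on the log2 scale, where 1 unit is a 2-fold step. Probes differ in brightness for equal amounts of RNA, so a level is a place on the array's scale and not a ratio between genes. Of the 9 measured genes 8 reached the level of the median gene, 6.46, as did 50% of all genes. Cd44, Vcam1, Pdgfrb, Lepr and Alcam had mean levels of at least 10.16, and Pdgfra (9.30), Nt5e (8.26) and Eng (7.42) followed. Thy1 lay at 3.88, at the 19.9th percentile of genes, and its only probe set gave no other reading of it. Detection calls were not used, so no gene is called absent.

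Many other stromal genes were bright as well, and so were genes of macrophages and fat cells. Of 19 measured further stromal markers 13 reached the median gene level. Among them were Cdh11 (13.02), a cadherin of mesenchymal cells, the chemokine gene Cxcl12 (12.72) and the transcription factor gene Prrx1 (11.25). Below the median gene level lay Ngfr (4.87), Anpep (5.86), Cspg4 (5.89), Itga5 (6.10), Mcam (6.28) and Cd200 (6.30). Of 10 macrophage markers 9 reached it, led by Lyz2 (14.17), Csf1r (12.78) and Mrc1 (12.31), and the pan-leukocyte gene Ptprc stood at 9.82. All 8 measured adipocyte markers reached it, led by Fabp4 (14.36), Adipoq (13.72) and Lpl (13.68), whereas 1 of 10 endothelial, 1 of 7 lymphoid and erythroid, 3 of 8 mural and 1 of 7 epithelial markers did. The mean level of the macrophage list ran from 10.62 to 10.91 over the control and from 10.46 to 11.10 over the irradiated arrays, and that of the adipocyte list from 11.30 to 11.69 and from 11.17 to 11.52. How much of the signal of a shared marker such as Cd44 or Vcam1 came from which cells was not tested. In RNA from whole cultures, fewer cells of a type and less RNA per cell cannot be told apart.

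Irradiation for 2 h gave no surface marker gene a difference that passed the test. limma, blocked by experiment, called 0 of the 9 genes at a Benjamini-Hochberg adjusted p under 0.05, against 0% of all 18193 genes, and the adjusted p was 0.995 for each of the 9. At an unadjusted p under 0.05 it gave 1 of 9, Nt5e, where the share of all genes was 3.31%. The mean differences ran from -0.05 to 0.21 log2 units with a median of 0.013, against -0.01 for all genes. Of the 9, 5 lay above 0, as did 45.2% of all genes. Each of the 95% confidence intervals lay within 1.5-fold in both directions, between -0.24 and 0.43 log2 units. The same held for 17884 of all 18193 genes, so it does not set the panel apart. The irradiated and control arrays overlapped in all 9 genes. Irradiated arrays lay all above the controls in 2.9% of all genes.

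**Figure D1:**
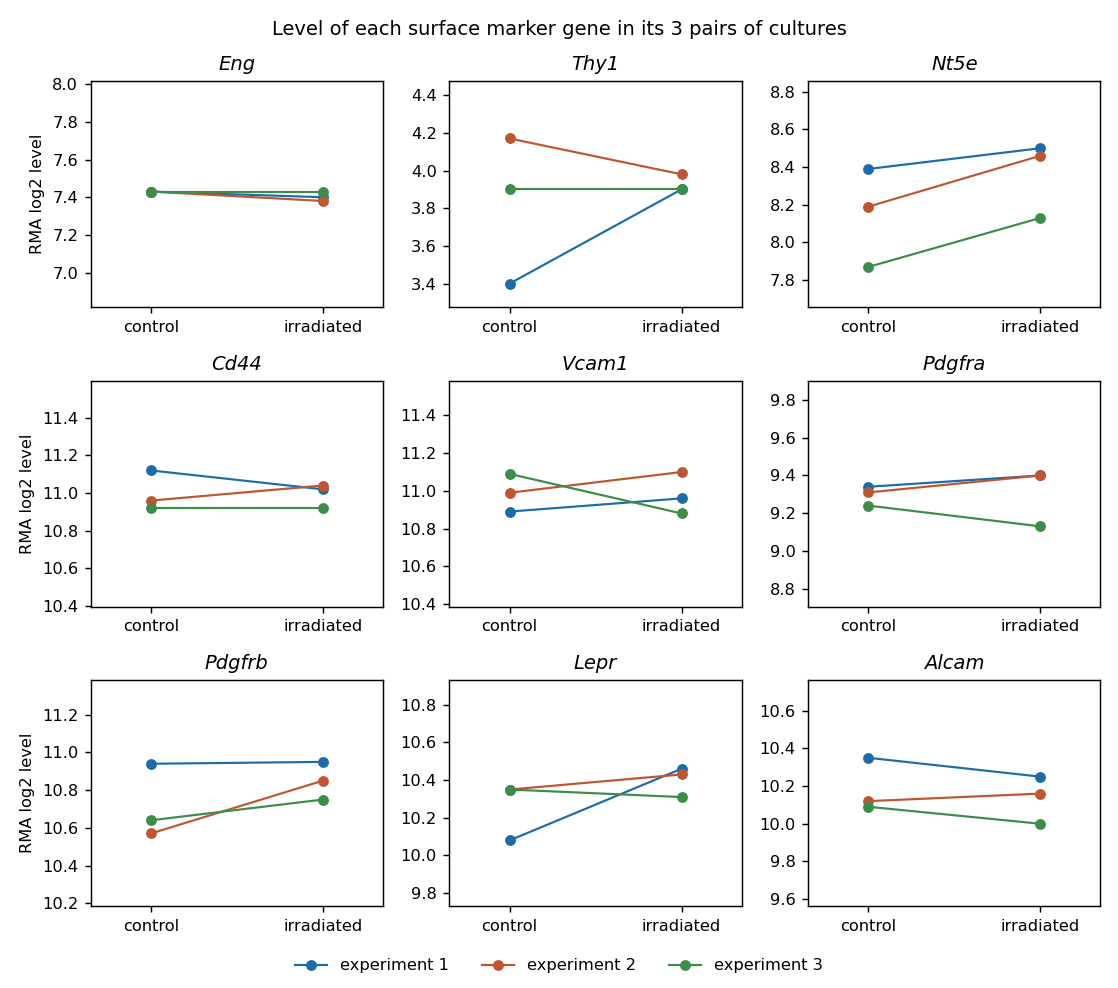
RMA log2 level (vertical axis, 1.2 units tall in every panel) of the 9 measured surface marker genes in control and irradiated cultures, with a line joining the 2 cultures of an experiment. The Nt5e lines all go up, from a control range of 7.87 to 8.39 to an irradiated range of 8.13 to 8.50, and the Thy1 lines go different ways.

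Nt5e, which encodes the adenosine-forming enzyme CD73, was the gene furthest from 0. Its controls read 8.39, 8.19 and 7.87 in experiments 1 to 3 and its irradiated cultures 8.50, 8.46 and 8.13. Every irradiated culture was above its own control, yet the groups overlapped, because both cultures of experiment 3 were below all the others. The differences were 0.11, 0.27 and 0.26, with a mean of 0.21 log2 units (SE 0.081, 95% interval 0.020 to 0.41, n = 3 pairs). The unadjusted p was 0.0352 in limma and 0.995 after Benjamini-Hochberg adjustment, so the difference did not pass. Without the experiment as a block, limma's unadjusted p was 0.191 (Benjamini-Hochberg adjusted p 0.997). The dimmer probe sets of Nt5e gave smaller differences, 0.10 (SE 0.090; level 6.36) with 0.21, 0.02 and 0.08 in the 3 experiments, and 0.0067 (SE 0.086; level 4.97). An exact sign-flip test on 3 pairs cannot give a two-sided p below 0.25, and none was run on single genes.

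Thy1, the other GPI-anchored marker, spread most over the arrays. Its controls read 3.40, 4.17 and 3.90 and its irradiated cultures 3.90, 3.98 and 3.90. The control of experiment 1 was the lowest and that of experiment 2 the highest, while the irradiated cultures lay between them. The differences were 0.50, -0.19 and 0.00 (mean 0.10, SE 0.14), and without experiment 1 the mean was -0.095. The range over the 6 arrays, 0.77 log2 units, exceeded that of 97.8% of genes. Thy1 read at a low level (3.88), however. The median range was 0.30 over all genes and 0.24 over those at or above the median level.

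The receptor kinase genes Pdgfra and Pdgfrb differed little between the groups. Pdgfra read 9.34, 9.31 and 9.24 in the controls and 9.40, 9.40 and 9.13 in the irradiated cultures. Irradiated was the higher culture in experiments 1 and 2 and the lower in experiment 3, with a mean difference of 0.013 (SE 0.083). Pdgfrb read 10.94, 10.57 and 10.64 in the controls and 10.95, 10.85 and 10.75 in the irradiated cultures. It was higher in every experiment, by 0.01, 0.28 and 0.11 (mean 0.13, SE 0.087; unadjusted p 0.173 in limma, Benjamini-Hochberg adjusted p 0.995), but the control of experiment 1 was above 2 of the irradiated cultures. Nt5e and Pdgfrb were the 2 of 9 genes that were higher in all 3 experiments, where 8.23% of all genes were, and 0 of 9 were lower in all 3, where 12.8% of all genes were.

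On its brightest probe set Lepr, the leptin receptor gene, rested on experiment 1. Its controls read 10.08, 10.35 and 10.35 and its irradiated cultures 10.46, 10.43 and 10.31. The control of experiment 1 stood below the other 5 arrays, which lay between 10.31 and 10.46. The differences were 0.38, 0.08 and -0.04 (mean 0.14, SE 0.10; unadjusted p 0.215 in limma, Benjamini-Hochberg adjusted p 0.995), and without experiment 1 the mean was 0.020. Of the 4 Lepr probe sets 1 was higher in all 3 experiments, the second brightest, by 0.19, 0.24 and 0.06. The endoglin gene Eng varied least. Its controls read 7.43 in each experiment and its irradiated cultures 7.40, 7.38 and 7.43, a mean difference of -0.027 (SE 0.076). Its range over the arrays, 0.05, was below that of nearly all genes (0.239th percentile), and a dimmer probe set of Eng differed by -0.32, 0.04 and 0.06.

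The adhesion genes also stayed close to 0. Cd44 read 11.12, 10.96 and 10.92 in the controls and 11.02, 11.04 and 10.92 in the irradiated cultures (mean difference -0.0067, SE 0.081). Vcam1 read 10.89, 10.99 and 11.09 in the controls and 10.96, 11.10 and 10.88 in the irradiated cultures (mean -0.010, SE 0.094). Irradiated Vcam1 was higher in experiments 1 and 2 and lower by 0.21 in experiment 3, whose control was the second highest of the 6 arrays. Alcam read 10.35, 10.12 and 10.09 in the controls and 10.25 and 10.16 in the irradiated cultures of experiments 1 and 2, with a difference of -0.09 in experiment 3 (mean -0.050, SE 0.080). For Alcam the cultures of experiment 1 were the highest in both groups and those of experiment 3 the lowest.

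**Figure D2:**
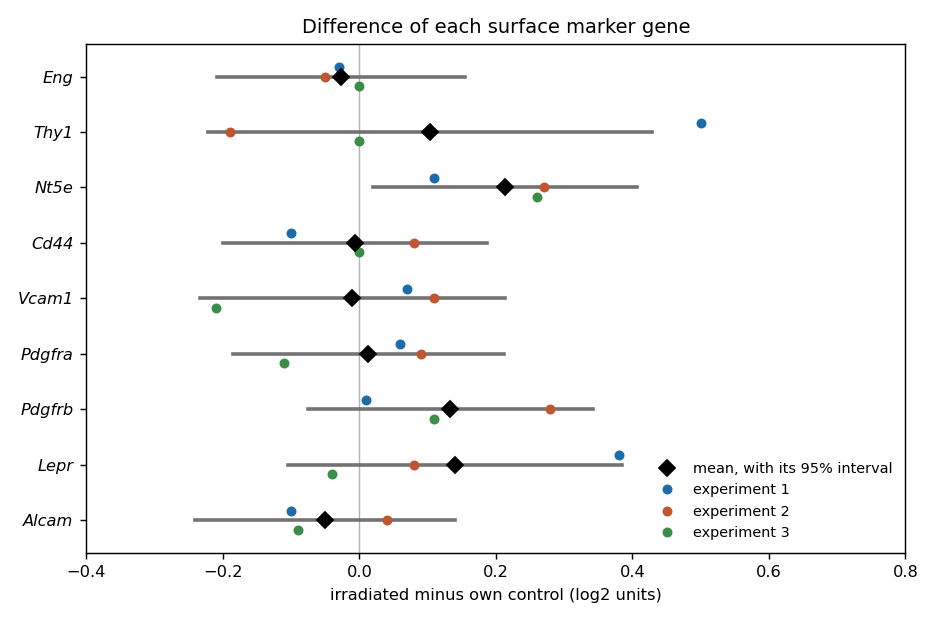
Irradiated minus own control, in log2 units, for the 9 measured surface marker genes, with a coloured dot per experiment, a diamond at the mean and a bar for limma's moderated 95% interval. The interval of Nt5e, 0.020 to 0.41, lies above 0 before adjustment for the number of genes, and those of the other 8 genes include 0.

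Probe sets of the same gene differed in size and, in 5 genes, in sign. Over all 27 probe sets 18 had a mean difference above 0, against 47.5% of the probe sets with 1 gene symbol, and their median was 0.077 log2 units, against -0.0033. Of the 27, 7 were higher in all 3 experiments, where the share on the array was 9.32%, and 0 were lower in all 3 (11.9% on the array). None of the 27 passed limma with Benjamini-Hochberg adjustment, where 0% of all 45037 probe sets passed, and 1 had an unadjusted p under 0.05 (3.77% on the array). Probe sets of a gene read the same RNA on the same arrays and are not replicates, so these counts describe the panel without a test.

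For Cd44 and Vcam1 the brightest probe set lay just below 0 and all the others above it. The brightest of Cd44 differed by -0.0067, and the other 3 by 0.12 (level 9.96), 0.20 (level 7.02) and 0.080 (level 2.59). In experiment 2 they differed by 0.42, 0.45 and 0.18, and in experiment 1 by -0.12, -0.04 and -0.17, so that the experiments disagreed in sign for all 3. The brightest of Vcam1 differed by -0.010 and its other probe sets by 0.15 (SE 0.097) and 0.11 (SE 0.091). On the first of these the irradiated arrays, at 9.77, 9.83 and 9.70, were all above the controls, at 9.69, 9.50 and 9.66. The same separation was seen for 3 of the 27 probe sets, against 3.57% on the array, and its reverse for 0 (4.85% on the array).

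The other such probe sets belonged to Pdgfra and Lepr. The dimmest of Pdgfra (level 6.32) read 6.33, 6.29 and 6.05 in the controls and 6.36, 6.45 and 6.45 in the irradiated cultures, a mean difference of 0.20 (SE 0.10), while the brightest differed by 0.013. The second of Lepr (level 9.63) read 9.45, 9.60 and 9.58 in the controls and 9.64, 9.84 and 9.64 in the irradiated cultures, a mean difference of 0.16 (SE 0.090). Unadjusted p values of these in limma were 0.0939 and 0.109, with Benjamini-Hochberg adjusted values of 0.995. The leptin receptor is made in several splice forms, and the probe sets of Lepr differed by 0.14, 0.16, 0.11 and, at the lowest level (3.65), -0.010. The dimmer probe set of Pdgfrb differed by -0.0067, and those of Alcam by 0.040, 0.077, -0.0033 and -0.12.

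**Figure D3:**
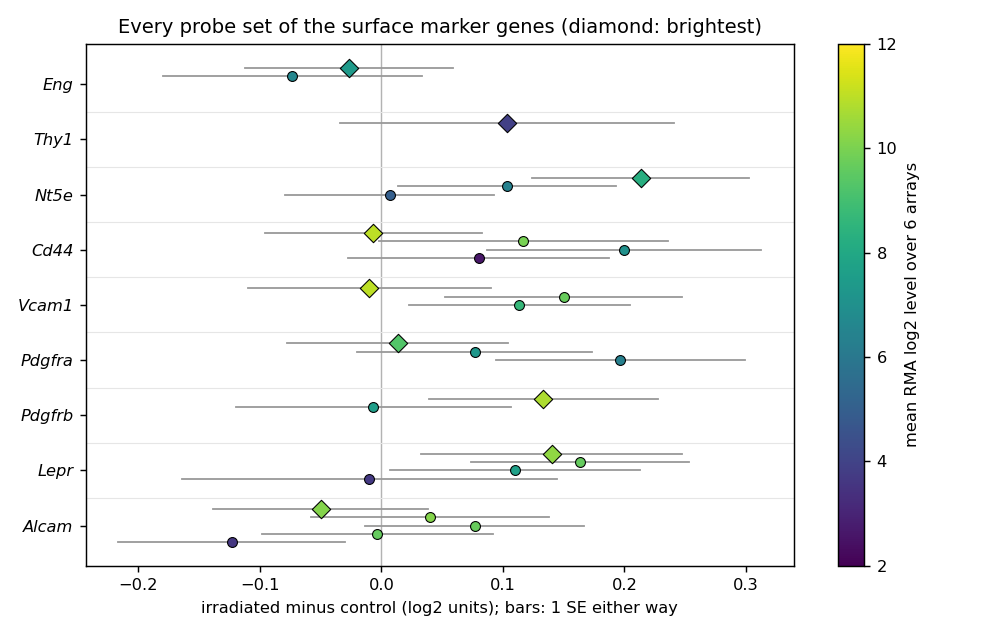
Mean irradiated minus control difference in log2 units for all 27 probe sets of the 9 genes, 1 row per gene, coloured by mean level, with bars of 1 SE and a diamond for the probe set that stands for the gene. For Cd44 and Vcam1 the diamonds sit at -0.0067 and -0.010 while their other probe sets lie between 0.080 and 0.20.

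Between the 3 experiments the surface marker genes varied too, and none passed the test for it. Each experiment held 1 culture of each group, so the mean of its 2 arrays can be compared across experiments. The range of these means exceeded the size of the irradiated minus control difference in 7 of the 9 genes (all but Eng and Lepr) and in 76.0% of all genes. limma's moderated F-test called 0 of the 9 genes at a Benjamini-Hochberg adjusted p under 0.05, against 0% of all genes, and gave an unadjusted p under 0.05 for 1 of 9, where the share of all genes was 5.46%. That gene was again Nt5e, whose means were 8.45 and 8.33 in experiments 1 and 2 and 0.45 log2 units below the first of these in experiment 3 (unadjusted p 0.00816 in limma's F-test, Benjamini-Hochberg adjusted p 0.907). Alcam (10.30, 10.14 and 10.05) and Pdgfrb (10.95, 10.71 and 10.70) were also highest in experiment 1, by 0.26 and 0.25 over their lowest experiment, at unadjusted p values of 0.0922 and 0.0941 in limma's F-test (Benjamini-Hochberg adjusted p 0.929).

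The sum of squares of each gene over the 6 arrays was split into parts for the experiment, the irradiation and the rest. The experiments have more degrees of freedom than the irradiation, so noise alone would give them a larger share. The experiments took a median of 63.4% over the 9 genes, against 36.3% over all genes, and the irradiation a median of 4.92%, against 11.4%. For Nt5e the experiments took 73.5%, the irradiation 23.7% and the rest 2.79%. For Alcam the experiments took 87.1% and for Pdgfra 78.0%. In Lepr they took 15.9%, with 32.5% for irradiation and 51.7% left over. Each split rests on 6 arrays and has no test beyond the fit above. Of the 10 macrophage markers, 6 had an unadjusted p under 0.05 between experiments in limma's F-test, against 5.46% of all genes. With Benjamini-Hochberg adjustment 0 passed, against 0% of all genes. The mean level of that list was 10.62 and 10.46 in the control and irradiated culture of experiment 1, 10.91 and 10.93 in experiment 2 and 10.91 and 11.10 in experiment 3. It was thus lowest in experiment 1. By their experiment means Nt5e, Cd44, Pdgfra, Pdgfrb and Alcam were highest in experiment 1. Thy1, Vcam1 and Lepr were lowest there, like the macrophage list, and Eng lay in between. The part of the macrophage markers in these differences was not tested.

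Genes that work with the surface markers gave no call either. limma with Benjamini-Hochberg adjustment called 0 genes in each of the partner lists, against 0% of all genes. Their medians lay between -0.042 and 0.073 log2 units. Over all genes 45.2% lay above 0, the share to set beside the count of every list below. The further stromal markers had the highest median, 0.073, with 15 of 19 genes above 0 against 45.2% of all genes. By experiment, 1 to 3, the median of that list was 0.01, 0.12 and 0.01, so it was raised mainly in experiment 2. Itgb1, the integrin subunit shared by many matrix receptors, differed by 0.18 (SE 0.087; 0.03, 0.30 and 0.21), and Itgav by 0.10 (SE 0.080; 0.01, 0.16 and 0.13). In limma 2 genes of that list had an unadjusted p under 0.05, where the share of all genes was 3.31%. Named after their values were seen, they were Ngfr, or CD271 (0.20, SE 0.081, level 4.87), and Anpep, or CD13 (-0.29, SE 0.10, level 5.86). Both lay below the median gene level and on opposite sides of 0, and in limma with Benjamini-Hochberg the adjusted p was 0.995 for each.

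Endoglin works with receptors and ligands of the TGF-beta family, and 9 of 15 genes on that list were above 0, with a range from -0.063 to 0.073. The receptor genes Tgfbr2 (0.033), Tgfbr3 (0.010) and Acvrl1 (-0.050; level 4.75) and the ligand genes Tgfb1 (-0.063) and Tgfb3 (0.073) lay close to 0. Bmpr2 differed by 0.070 and Smad2 by 0.073, each by nearly the same amount in all 3 experiments (0.08, 0.06 and 0.07, and 0.06, 0.07 and 0.09). For the PDGF receptors, the ligand genes Pdgfa (0.030), Pdgfb (-0.18), Pdgfc (0.093) and Pdgfd (0.087) changed sign between experiments. Pdgfd, for example, differed by 0.08, 0.49 and -0.31. Of the signalling genes, the kinase gene Src differed by -0.17 (SE 0.076; -0.16, -0.15 and -0.21), Pik3r1, a regulatory subunit of PI3 kinase, by -0.10 (SE 0.078) and the adaptor gene Shc1 by 0.040. In that list 6 of 13 genes lay above 0.

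In the leptin pathway 5 of 8 genes lay above 0. Socs3, an inhibitor of cytokine receptor signalling that leptin and many cytokines induce, was the 1 gene of the list with an unadjusted p under 0.05 (3.31% of all genes). It differed by 0.21 (SE 0.078; 0.19, 0.27 and 0.17; unadjusted p 0.0319 in limma, Benjamini-Hochberg adjusted p 0.995), and its irradiated arrays were all above its controls. Ptpn1, a phosphatase of the pathway, differed by -0.080 and Lep itself, at a level of 3.42, by 0.040. Among the hyaluronan and CD44 genes 5 of 11 lay above 0: the hyaluronan synthase gene Has2 differed by 0.12 (SE 0.11; -0.06, 0.38 and 0.04), Mmp14, a protease that cuts CD44, by -0.027 and the proteoglycan gene Srgn by -0.077. Of the partners of VCAM1, THY1 and ALCAM, 5 of 10 lay above 0. Itga9, an integrin subunit that binds VCAM1, differed by -0.21 (SE 0.096; -0.43, -0.11 and -0.10), and Itga4, whose protein also binds VCAM1, by 0.17 (SE 0.091; level 5.25).

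CD73 acts after the ectonucleotidase CD39 and before enzymes that clear adenosine, and 5 of 10 measured genes of that route lay above 0. Entpd1, which encodes CD39, differed by -0.013 (SE 0.097; -0.02, 0.18 and -0.20) and Ada, adenosine deaminase, by -0.0067 (-0.26, 0.23 and 0.01). Of the 4 adenosine receptor genes only Adora3 had a probe set of its own here, at a level of 4.64. The genes that build and attach GPI anchors, which NT5E and THY1 need, had 6 of 18 above 0, against 45.2% of all genes. Their median was -0.042, with Pigs at -0.090 and Pgap2 at -0.087.

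**Figure D4:**
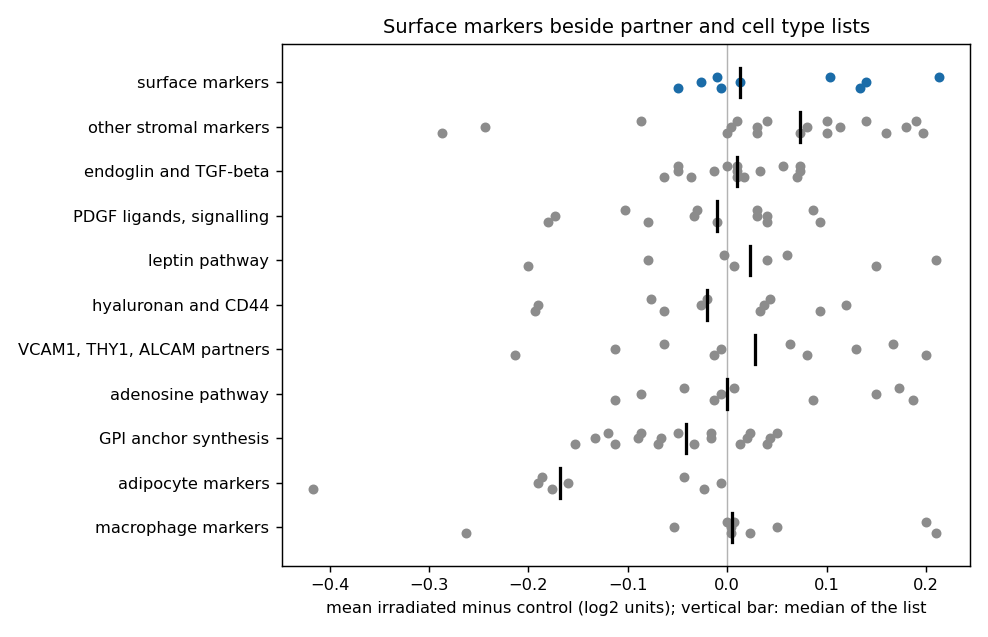
Mean irradiated minus control difference in log2 units of each measured gene, with 1 row per list, surface markers in blue and a vertical bar at the median of the list. The surface markers centre on 0.013 and span -0.050 to 0.21, and the partner lists straddle 0. The adipocyte markers all lie below 0 with a median of -0.17. By experiment, 1 to 3, their median was 0.085, -0.58 and 0.010.

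Experiment 2 differed from the others in the fat-cell genes, and several surface marker probe sets were highest above their controls there. All 8 adipocyte markers had mean differences below 0, as did 9689 of all 18193 genes. The median of the adipocyte list was 0.085 in experiment 1, -0.58 in experiment 2 and 0.010 in experiment 3. Lipe, hormone-sensitive lipase, for example differed by -0.05, -1.17 and -0.03. In experiment 2, 21 of the 27 surface marker probe sets were above their control, with a median of 0.090, against 16 with 0.030 in experiment 1 and 17 with 0.050 in experiment 3. Of all probe sets with 1 gene symbol, 48.3% were above their control in experiment 2 (median 0 log2 units), 43.4% in experiment 1 (median -0.02) and 49.7% in experiment 3 (median 0). Pdgfrb (0.28) and Cd44 on 2 dimmer probe sets (0.42 and 0.45) were furthest above 0 in that experiment, as was Nt5e by a small margin (0.27 against 0.26 in experiment 3). Without experiment 2, the Nt5e difference was 0.19 (unadjusted p 0.123 in limma, Benjamini-Hochberg adjusted p 0.994) and that of Pdgfrb 0.060. The adipocyte markers' part in these values was not tested.

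The control of experiment 3 stood apart from the other 5 arrays in the 3' minus 5' signal of its control probe sets, a measure of RNA quality, at 0.68 for actin against 0.50 to 0.57 and at 0.11 for Gapdh against -0.10 to -0.08. Its Nt5e value, 7.87, was the lowest of the 6 and its Vcam1 value, 11.09, the second highest. Without experiment 3 the Nt5e difference was 0.19 (unadjusted p 0.123 in limma, Benjamini-Hochberg adjusted p 0.965), and that of Vcam1 was 0.090, on the other side of 0. The median difference over the 9 genes was then 0.090, against 0.013 with all experiments.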

How the data were processed

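Each probe set has a deposited log2 value per array, made by the authors with RMA, per the submitters' processing notes, which also name affy and limma. RMA corrects background, brings all arrays to 1 distribution and summarises probes, so a shift shared by all transcripts is lost. The log base was taken from the range of the values, 1.73 to 14.53. The array medians were 5.01 to 5.05.

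Of 45101 probe sets 64 controls were left out. The platform annotation gave 1 symbol to 34945, several to 932 and none to 9160. The 18193 genes were tested with limma 3.58.1 in R 4.3.3 (lmFit, eBayes), irradiated minus control with the experiment as a block, which leaves 2 residual degrees of freedom. p values were Benjamini-Hochberg adjusted over all genes. Pairing follows the series' design text. Deviations of same-numbered arrays correlated at 0.15, -0.090 and -0.012, and those of differently numbered arrays at -0.13 to 0.16. Control 2 with irradiated 3 (0.13) and control 3 with irradiated 2 (0.16) were above their same-numbered pairs. For experiments 2 and 3 the pairing thus rests on the design text alone. On simulated data limma recovered 66.0% of genes changed 2-fold and 30.4% of those changed 1.5-fold, planted among larger changes.

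Members and lists were chosen with earlier results of these data known. Named partner genes are up to 3 per list at or above the median level, of 1 sign in all experiments and with the largest change, beside preset ligands, receptors and enzymes. Of those Itgb1 stands among the stromal markers, and Spp1 and Adora2b had no probe set of their own. Markers of other cells are named by level. Alternatives were other blocks, probe set choices, filters, moderation, centring and leaving out each experiment. The number of arrays limits the precision.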

Additional observations from a re-analysis of the deposited data

How the results depend on the processing

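None of the 9 surface marker genes was called under the 11 alternatives to the test (10 for Thy1, which is below the median level). Without the experiment as a block limma called 0 genes, with 649 at an unadjusted p under 0.05 against 603, and the median difference of the 9 genes stayed at 0.013; the block changed no other call. Nt5e stayed above 0 in all 11 alternatives, from 0.11 to 0.27 (limma's Benjamini-Hochberg adjusted p 0.926 to 1), with an unadjusted p under 0.05 in 5. Leaving out an experiment moved the median of the 9 genes between -0.015 and 0.090, Thy1 between -0.095 and 0.25, Cd44 between -0.050 and 0.040, Pdgfra between -0.025 and 0.075 and Vcam1 between -0.070 and 0.090. Averaging all probe sets of a gene moved the median to 0.096, Cd44 to 0.098 and Vcam1 to 0.084. Single other probe sets were on the other side of 0 for Cd44 (0.12, 0.20 and 0.080), Vcam1 (0.15 and 0.11), Pdgfrb (-0.0067), Lepr (-0.010) and Alcam (0.040 and 0.077). Over all genes, an ordinary paired test called 8 between irradiated and control cultures, none a surface marker. The values have 2 decimals, so the differences of a gene can be identical in all 3 experiments. Such a gene has no spread in that test and is called however small its difference. Shc1, at 0.04 in each experiment, was one of these, so the 8 are not read as changes. Between experiments limma called 1 gene with probe sets averaged, 1 at or above the median level, 2 with eBayes trend and 1 with arrays centred on their medians, none of them a surface marker. The cause of these calls between experiments was not tested. Dim probe sets, such as that of Thy1, limit what can be seen.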
